A study of Homo sapiens with 8 samples.

Results

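The TGF-β, activin and BMP pathway was followed as 45 genes, taken by their symbols from the rows of a count table of 23368 gene symbols. They are 10 ligands, 4 latency proteins, 3 extracellular antagonists, 11 receptors and co-receptors, 7 SMAD proteins, 5 intracellular regulators and 5 target genes. RNA-seq libraries came from MDA-MB231, an established human triple-negative breast cancer cell line grown in serum-containing medium. The cells had been transfected with siE1, siE2 or siE3, small interfering RNAs against the ESRRA mRNA, or with the control siRNA siC, each in duplicate libraries, 8 in all. The protein made from ESRRA is ERRα, a nuclear receptor related to the estrogen receptors. All groups share the transfection, and the RNA was measured in bulk, so that fewer cells expressing a gene and less RNA per cell cannot be told apart.

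As background, ligands of this family are secreted as dimers and bind a complex of type I and type II receptor kinases. TGF-β is secreted bound to its own propeptide and, through it, to latent TGF-β binding proteins (LTBPs), which hold it in the matrix until it is released. The type I receptor phosphorylates receptor SMADs (SMAD2 and SMAD3 for TGF-β and activin, SMAD1 and SMAD5 for BMPs), which join SMAD4 and act on target genes in the nucleus. SMAD6 and SMAD7 are targets that feed back to block the receptors. In MDA-MB-231 cells TGF-β is known for its part in invasion and bone metastasis models.

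Total counts per library ran from 21835995 to 25880548. ESRRA was lower with each siRNA, at 10.3 and 10.5 CPM (counts per 1e6 reads of the library, scaled for composition) with siE1, 8.86 and 7.25 with siE2, and 8.55 and 8.31 for siE3, against 62.9 and 64.8 with siC. The libraries carried the line's mesenchymal markers (VIM had 73202 to 93788 reads), while the hormone receptor genes ESR1 and PGR had at most 1 read and CDH1 at most 3. ERBB2, EPCAM, GATA3 and FOXA1, also low in this line as a rule, had 60 to 1554 reads. Of 6 blood markers CD3E and HBB were at 0 everywhere and PTPRC had at most 2 reads. The summed level of that list (415 to 432 CPM with siE1, 289.9 to 294 with siE2, 322 to 327 with siE3, 214 to 226 with siC) was nearly all CD68, a lysosomal gene that epithelial cells also express. Among 7 fibroblast markers DCN and LUM were at 0, with sums of 8.67 to 10.1, 11.9 to 13.4 and 8.87 to 10.6 CPM with siE1, siE2 and siE3, against 7.11 to 7.76 CPM with siC. The 5 endothelial markers summed to at most 4.28 CPM in any library, with TEK at 0 or 1 read. CD68 and some low fibroblast and endothelial markers were thus higher with the ESRRA siRNAs, and their part in the results was not tested. Pairs of libraries with 1 siRNA gave a chi-square of their counts of 3.11 to 5.12 per degree of freedom, and pairs with different siRNAs 40.6 to 75.1. No label states separate cultures for the replicates. All p-values therefore rest on the spread between library pairs that may differ only technically.

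Of the 45 members, 42 passed the filter on low counts and were tested among 13395 genes. BMP7 and GREM1 had no read in any library, which allows up to 0.116 to 0.137 CPM per library (3 reads, counting error only), and INHBA, the inhibin βA chain of activin A, had 1 to 13 reads. Among the tested members, more were called higher than lower with every ESRRA siRNA. The members, and the wider list below, were chosen with earlier results of these data known. Their counts are therefore a description and not a test of the pathway. With siE1, 21 members were called higher (edgeR quasi-likelihood test, adjusted p below 0.05), where 24.5% of all genes tested were, and 2 lower, where 25.8% were. With siE2, 26 were higher (27.9% of all genes) and 6 lower (28.5%). With siE3, 20 were higher (21.3%) and 4 lower (20.8%). In the average of the 3 siRNAs, 27 were higher (23.4%) and 6 lower (27.7%). The test of the average uses the spread between libraries and not that between siRNAs, so a call in it can rest on 1 siRNA. TGFB2 and TGFBI, called lower with siE3, and FST, called only with siE2, are among the 27. The median log2 fold change of the 42 tested members was 0.17, 0.40 and 0.22 with siE1, siE2 and siE3, and 0.34 in the average, where the medians over all genes tested lay between -0.01 and 0.01. Counting only calls of at least 1.5-fold, 9 members were higher with siE1 (8.22% of all genes tested) and 2 lower (6.52%). The siE2 counts were 15 higher (11.4%) and 2 lower (6.56%), those of siE3 10 higher (5.96%) and 1 lower (4.01%), and those of the average 10 higher (6.75%) and 1 lower (2.78%). These comparisons share the 2 siC libraries and are not independent of each other. By each siRNA's own test, 11 members were called higher with all 3 (8.73% of all genes tested) and 3, TGFB2, TGFBI and GDF11, in opposite directions by 2 of them (10.7%). Among the 11, the siE1 calls of TGFBR2 and ACVR1 and the siE2 call of LTBP4 were lost in some fits with 1 library left out. The count of members lower with all 3 was 0 by edgeR's adjusted p (7.42% of all genes tested), 1 at an unadjusted p below 0.05, 0 by DESeq2 and 0 by limma-voom. Those called with none of the 3 were 6, namely TGFB3, SMAD3, BMP6, BMPR1B, ACVR2A and ID2 (21.2%). The strand setting of the counting (not given in the sources used here) matters for overlapping genes. Exons of TGFB1, GDF11, SMAD5, SMURF1, SMURF2 and ACVR2A overlap those of HNRNPUL1, SARNP, SMAD5-AS1, TRRAP, CEP95 and ORC4 on the other strand. Without strand, reads within these overlaps, of 167 (SMURF2) to 735 bases (SMURF1), cannot be told apart.

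**Figure D1:**
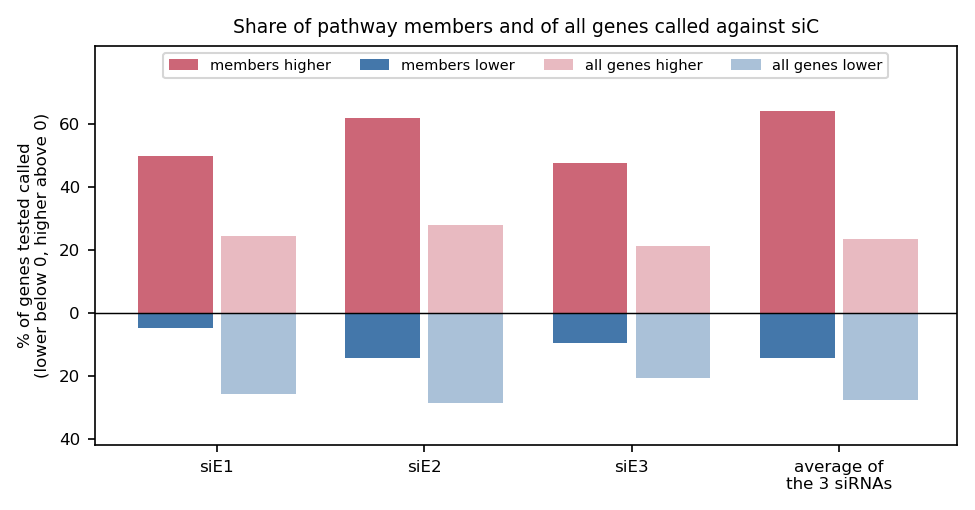
Percent of genes tested that were called higher (above 0) or lower (below 0) against siC (edgeR adjusted p below 0.05), for the 42 tested pathway members (dark bars) and for all 13395 genes tested (pale bars). In each comparison the dark bar above 0 is longer than the pale one, and the dark bar below 0 is shorter, with 27 members higher and 6 lower in the average. The members were chosen with earlier results of these data known.

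Among the ligands, TGFB1 was higher with every siRNA, TGFB2 moved in opposite directions between siRNAs, and BMP2 was lower with siE1 and siE2. TGFB1, the most widely expressed TGF-β isoform, had 103 and 100.2 CPM with siE1, 110.3 and 105 with siE2, and 118 and 106 for siE3, against 83.2 and 82.7 with siC. All 6 ESRRA siRNA libraries lay above both siC libraries, and the log2 fold changes were 0.29 with siE1 (SE 0.0570), 0.38 with siE2 (SE 0.0570) and 0.43 with siE3 (SE 0.0569), edgeR adjusted p = 5.5e-04, 4.2e-05 and 1.9e-05. TGFB2, an isoform with the same receptors that needs the co-receptor TGFBR3 for high-affinity binding, had 56.7 and 56.9 CPM with siE1, 142 and 131 with siE2, and 22.2 and 26.0 for siE3, against 37.0 and 35.1 with siC. No groups overlapped: siE2 stood highest, siE1 next, siC below it and siE3 lowest. Its log2 fold changes were 0.66 with siE1 (SE 0.0726), 1.92 with siE2 (SE 0.0698) and -0.58 with siE3 (SE 0.0798), edgeR adjusted p = 2.5e-06, 2.5e-11 and 3.3e-05. TGFB3 was low, with 18 and 22 reads with siE1, 32 and 32 with siE2, and 17 and 16 for siE3, against 24 and 24 with siC, and was called with none of the siRNAs against siC.

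Per kilobase of transcript (GENCODE v29 lengths), TGFB1 averaged 36.7 ± 0.708 CPM with siE1, 38.9 ± 1.3 with siE2 and 40.5 ± 3.14 with siE3, against 30.0 ± 0.119 with siC (SD, n = 2 each). On the same scale TGFB2 averaged 11.3 ± 0.0154, 27.2 ± 1.66 and 4.82 ± 0.540 CPM per kilobase with siE1, siE2 and siE3, against 7.2 ± 0.271 with siC. TGFB1 was thus the higher isoform in every group, and the gap was narrowest with siE2. TGFB3 stayed below 1 CPM per kilobase in all 4 groups.

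BMP4, which signals through SMAD1 and SMAD5, had 8.49 and 7.95 CPM with siE1, 28.9 and 24.4 with siE2, and 13.0 and 11.9 for siE3, against 10.5 and 7.71 with siC. Both siE2 libraries stood above all others, and siE2 gave 1.55 (SE 0.128, edgeR adjusted p = 8.1e-08) on the log2 scale. With siE3 it was 0.45 (SE 0.140, edgeR adjusted p = 0.018), a call lost without siC replicate 2 (0.23, adjusted p = 0.25) or siE3 replicate 1 (adjusted p = 0.10). The value was 0.68 without siC replicate 1. With siE1 BMP4 was at -0.15 (edgeR adjusted p = 0.43). BMP2, the other classic osteogenic BMP, had 3.07 and 2.89 CPM with siE1, 2.85 and 2.98 with siE2, and 3.57 and 4.37 for siE3, against 3.88 and 5.53 with siC, at -0.66 (SE 0.191, edgeR adjusted p = 0.0092) with siE1 and -0.69 (SE 0.193, edgeR adjusted p = 0.0064) with siE2. The siC libraries differed, and without siC replicate 2 neither call held (-0.38 and -0.41, adjusted p = 0.18 and 0.14). The siE1 call was also lost without siE1 replicate 2 (adjusted p = 0.058). BMP6 was at -0.27, -0.66 and -0.30 and was not called with any of the siRNAs, though siE2 gave a call with no filter on low counts (adjusted p = 0.030) or without siC replicate 2 (-0.98, adjusted p = 0.011).

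INHBB, the inhibin βB chain that forms activin B, had 62 and 98 reads with siE1, 50 and 65 with siE2, and 36 and 31 for siE3, against 35 and 30 with siC. On the log2 scale it rose by 1.20 (SE 0.237, edgeR adjusted p = 5.9e-04) with siE1 and by 0.79 (SE 0.251, edgeR adjusted p = 0.014) with siE2, and with siE3 its log2 fold change was 0.05. The siE2 call was lost without siC replicate 2 (adjusted p = 0.11), without siE2 replicate 2 (adjusted p = 0.13) and with the DESeq2 Wald test (adjusted p = 0.062). GDF11, a ligand of the activin branch, had 33.8 and 34.6 CPM with siE1, 28.5 and 29.1 with siE2, and 24.3 and 23.2 for siE3, against 28.4 and 27.1 with siC, higher with siE1 and lower with siE3, without overlap. Its log2 fold changes were 0.30 (SE 0.0683, edgeR adjusted p = 0.0019) with siE1 and -0.23 (SE 0.0715, edgeR adjusted p = 0.019) with siE3. The siE3 call did not hold without siC replicate 1 (adjusted p = 0.11), without siE3 replicate 2 (adjusted p = 0.097) or with DESeq2 (adjusted p = 0.071).

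**Figure D2:**
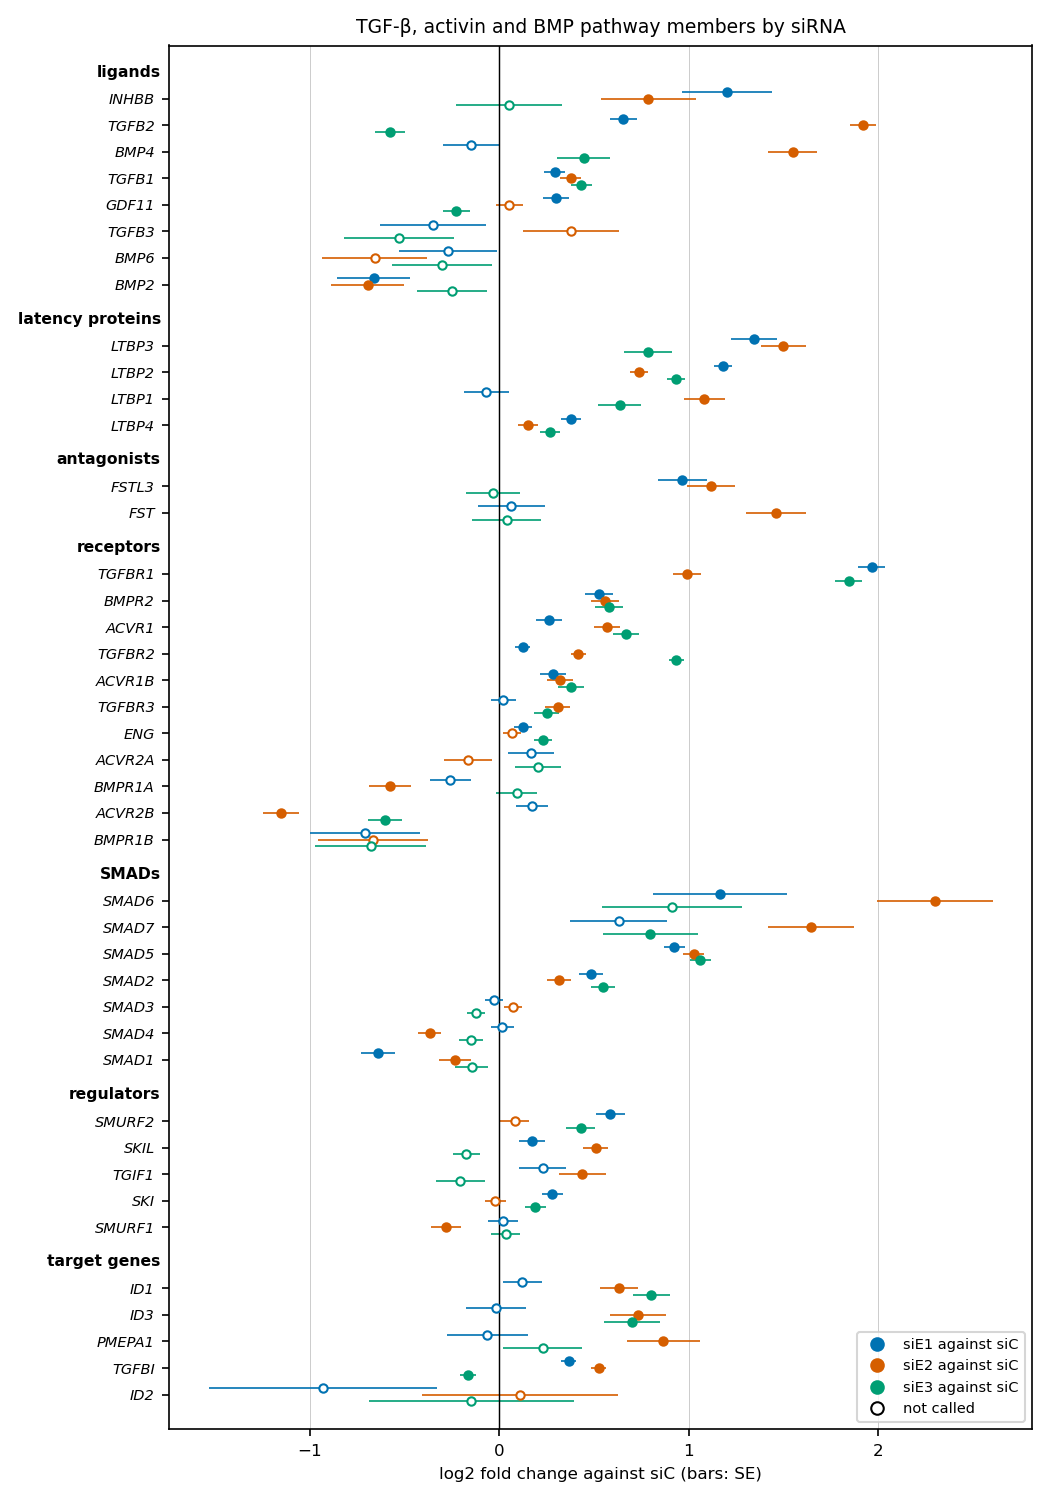
Log2 fold change against siC (x axis, bars are SE) of the 42 tested members, grouped by role, with siE1 in blue, siE2 in orange and siE3 in green, and filled points for calls (edgeR adjusted p below 0.05). The 3 siRNAs lie close together for BMPR2, ACVR1B and SMAD5, and far apart for TGFB2, FST and ACVR2B.

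All 4 latency proteins were called higher in the average of the siRNAs, where 23.4% of all genes tested were. LTBP2, LTBP3 and LTBP4 were called higher with every siRNA (8.73% of all genes tested) and LTBP1 with siE2 and siE3. LTBP2, a matrix protein of the family that is known not to bind latent TGF-β itself, had 155 and 150.1 CPM with siE1, 111 and 114 with siE2, and 128 and 130.0 for siE3, against 67.3 and 67.5 with siC. The siC libraries were nearly equal and every ESRRA siRNA library was more than 1.5 times their level, with log2 fold changes of 1.18 with siE1 (SE 0.0478), 0.74 with siE2 (SE 0.0484) and 0.93 with siE3 (SE 0.0482), edgeR adjusted p = 5.8e-11, 6.9e-09 and 1.4e-09. LTBP3, which binds latent TGF-β, had 16.1 and 14.5 CPM with siE1, 18.3 and 15.7 with siE2, and 10.3 and 10.4 for siE3, against 5.66 and 6.34 with siC. Its log2 fold changes were 1.35 with siE1 (SE 0.121), 1.5 with siE2 (SE 0.119) and 0.79 with siE3 (SE 0.128), edgeR adjusted p = 2.7e-07, 5.6e-08 and 1.5e-04, and LTBP3 was lower with siE3 than with siE2, siE2 against siE3 being at 0.71 (SE 0.110, edgeR adjusted p = 7.0e-05). LTBP4 had 171 and 181 CPM with siE1, 149 and 151 with siE2, and 170.0 and 156 for siE3, against 139 and 132 with siC, with smaller log2 fold changes of 0.38 with siE1 (SE 0.0522), 0.15 with siE2 (SE 0.0526) and 0.27 with siE3 (SE 0.0525). Its siE2 call (edgeR adjusted p = 0.023) was lost without siC replicate 2 (adjusted p = 0.18), siE2 replicate 1 (0.070) or siE2 replicate 2 (0.11). LTBP1, the best studied carrier of latent TGF-β, had 8.77 and 8.76 CPM with siE1, 18.5 and 20.4 with siE2, and 14.9 and 13.7 for siE3, against 10.1 and 8.31 with siC. The siE1 libraries lay within the range of siC, and the log2 fold change was 1.08 (SE 0.110, edgeR adjusted p = 7.2e-07) with siE2 and 0.64 (SE 0.114, edgeR adjusted p = 3.5e-04) with siE3.

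Both follistatin-type antagonists that were tested, which bind and neutralise activins and GDF11, rose with siE2. FST (follistatin) had 7.91 and 5.29 CPM with siE1, 17.3 and 17.1 with siE2, and 5.81 and 7.01 for siE3, against 5.52 and 6.94 with siC. Only siE2 stood apart, at 1.46 (SE 0.157, edgeR adjusted p = 1.4e-06), against 0.06 and 0.04 with siE1 and siE3, and the direct differences were -1.40 (SE 0.155, edgeR adjusted p = 1.8e-06) for siE1 against siE2 and 1.42 (SE 0.157, edgeR adjusted p = 2.6e-06) for siE2 against siE3. FSTL3 had 13.1 and 14.7 CPM with siE1, 15.5 and 15.4 with siE2, and 7.95 and 6.01 for siE3, against 7.49 and 6.77 with siC. The siE1 and siE2 libraries all lay above siC and the siE3 libraries spanned it, with log2 fold changes of 0.97 with siE1 (SE 0.129), 1.12 with siE2 (SE 0.128) and -0.03 with siE3 (SE 0.144), edgeR adjusted p = 1.7e-05, 2.6e-06 and 0.88.

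Among the 11 receptors and co-receptors, TGFBR1, TGFBR2, BMPR2, ACVR1 and ACVR1B were called higher with every siRNA, as were 8.73% of all genes tested. TGFBR1, the type I receptor for TGF-β, had 116 and 113 CPM with siE1, 61.7 and 54.4 with siE2, and 103 and 106 for siE3, against 27.3 and 30.9 with siC. The ESRRA siRNA libraries were all above siC without overlap, and siE2 stood between siC and the other siRNAs. The log2 fold changes were 1.97 with siE1 (SE 0.0708), 0.99 with siE2 (SE 0.0736) and 1.85 with siE3 (SE 0.0712), edgeR adjusted p = 1.6e-11, 2.6e-08 and 6.9e-11. The direct difference was 0.97 (SE 0.0656, edgeR adjusted p = 7.8e-09) for siE1 against siE2, 0.12 (SE 0.0629, edgeR adjusted p = 0.12) for siE1 against siE3 and -0.85 (SE 0.0660, edgeR adjusted p = 6.3e-08) for siE2 against siE3. TGFBR2, the type II receptor that activates TGFBR1, had 482 and 488 CPM with siE1, 602 and 586 with siE2, and 861 and 840.2 for siE3, against 448 and 442 with siC. Here siE3 was highest, then siE2, then siE1, with log2 fold changes of 0.13 with siE1 (SE 0.0390), 0.42 with siE2 (SE 0.0390) and 0.94 with siE3 (SE 0.0391), edgeR adjusted p = 0.015, 3.0e-07 and 1.6e-10. The siE1 call was lost without siC replicate 1 (adjusted p = 0.053), siC replicate 2 (0.096), siE1 replicate 1 (0.053) or siE1 replicate 2 (0.10).

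Per kilobase of transcript, TGFBR2 averaged 105 ± 0.943 CPM with siE1, 129 ± 2.35 with siE2 and 184 ± 3.27 with siE3, against 96.4 ± 0.896 with siC (SD, n = 2 each). TGFBR1 averaged 19.6 ± 0.371, 9.96 ± 0.889 and 18.0 ± 0.325 CPM per kilobase with siE1, siE2 and siE3, against 5.0 ± 0.437 with siC. The type II receptor was thus the more abundant mRNA in every group, and the type I receptor was the one with the larger change in each comparison with siC.

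**Figure D3:**
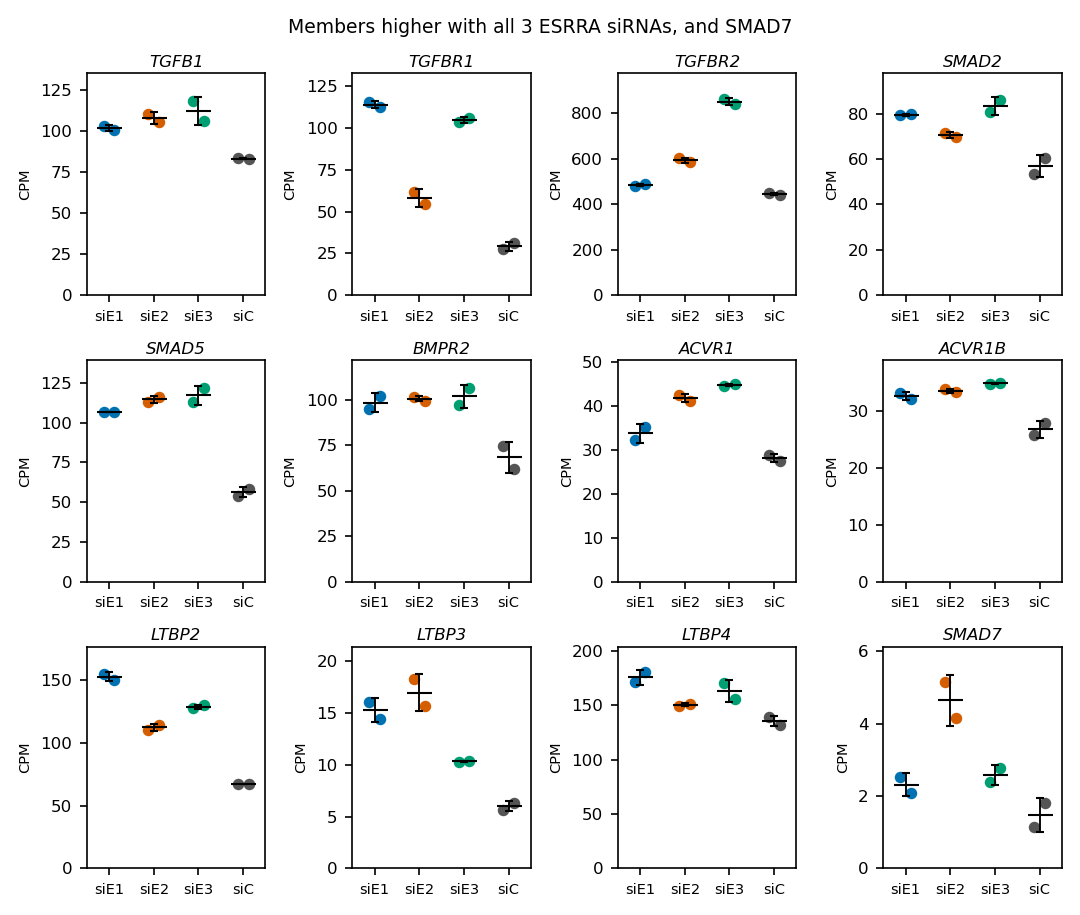
CPM in each library (points, y axes start at 0) with mean and SD (n = 2) for the 11 members called higher with siE1, siE2 and siE3, and for SMAD7, by siRNA on the x axis. In each of these panels all 6 ESRRA siRNA libraries lie above both siC libraries, and TGFBR1 runs from 54.4 to 116 CPM in them, against 27.3 and 30.9 CPM with siC.

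BMPR2, the type II BMP receptor, had 94.7 and 102 CPM with siE1, 102 and 99.6 with siE2, and 97.4 and 107 for siE3, against 74.5 and 62.2 with siC, and its log2 fold changes were close to each other at 0.53 with siE1 (SE 0.0740), 0.56 with siE2 (SE 0.0740) and 0.58 with siE3 (SE 0.0741), edgeR adjusted p = 2.7e-05, 1.1e-05 and 1.5e-05. ACVR1, a type I receptor of BMPs and activins, had 32.2 and 35.2 CPM with siE1, 42.4 and 41.0 with siE2, and 44.5 and 44.9 for siE3, against 28.8 and 27.5 with siC. Its log2 fold changes were 0.26 with siE1 (SE 0.0693), 0.57 with siE2 (SE 0.0681) and 0.67 with siE3 (SE 0.0679). The siE1 call (edgeR adjusted p = 0.0053) was lost without siC replicate 2 (adjusted p = 0.055) or siE1 replicate 2 (0.088). ACVR1B, the activin type I receptor, had 33.3 and 32.2 CPM with siE1, 33.9 and 33.4 with siE2, and 34.9 and 35.0 for siE3, against 25.8 and 27.9 with siC, with log2 fold changes of 0.28 with siE1 (SE 0.0687), 0.32 with siE2 (SE 0.0687) and 0.38 with siE3 (SE 0.0687), edgeR adjusted p = 0.0030, 9.3e-04 and 4.0e-04.

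Other receptors were lower or did not move together. ACVR2B, a type II receptor of activins and GDF11, had 37.2 and 35.4 CPM with siE1, 13.9 and 15.1 with siE2, and 20.4 and 21.9 for siE3, against 34.9 and 29.6 with siC. The siE2 and siE3 libraries lay below siC and the siE1 libraries above it, and the log2 fold changes were 0.17 with siE1 (SE 0.0831), -1.15 with siE2 (SE 0.0929) and -0.60 with siE3 (SE 0.0886), edgeR adjusted p = 0.097, 6.3e-08 and 5.7e-05. Its relative ACVR2A was at 0.17, -0.16 and 0.20 with siE1, siE2 and siE3 and was not called. BMPR1A, a type I BMP receptor, fell by 0.58 (SE 0.113, edgeR adjusted p = 4.4e-04) on the log2 scale with siE2 and was not called with siE1 (-0.26) or siE3 (0.09). When low counts were not filtered, siE1 passed (edgeR adjusted p = 0.045), and also when either siE3 library was left out (0.036 for each). BMPR1B had 55 and 28 reads with siE1, 48 and 35 with siE2, and 36 and 44 for siE3, against 58 and 71 with siC. All 6 ESRRA siRNA libraries were below siC, none of the siRNAs alone gave a call (edgeR adjusted p = 0.054, 0.063 and 0.077), and the average was -0.69 (SE 0.233, edgeR adjusted p = 0.022), lost without siC replicate 2 (adjusted p = 0.17) and with DESeq2 (adjusted p = 0.067). With no filter on low counts BMPR1B was called with every siRNA (edgeR adjusted p = 0.012, 0.016 and 0.022). The siE1 value also passed with limma-voom (adjusted p = 0.033) and was -1.40 without siE1 replicate 1 (edgeR adjusted p = 0.0017). The siE2 and siE3 values passed in a fit of the groups compared alone and without either siE1 library (edgeR adjusted p = 0.019 to 0.026). The co-receptor TGFBR3 (betaglycan) rose by 0.31 (SE 0.0653, edgeR adjusted p = 8.7e-04) with siE2 and 0.25 (SE 0.0656, edgeR adjusted p = 0.0062) with siE3. The siE3 value was lost as a call without siC replicate 2 (0.16, adjusted p = 0.11) or siE3 replicate 2 (adjusted p = 0.066). The co-receptor ENG (endoglin) stood at 0.13, 0.07 and 0.23, called with siE3 (edgeR adjusted p = 0.0011) and, near the threshold, with siE1 (0.037), where the call was lost without either siC or siE1 library (adjusted p = 0.0502 to 0.26), without siE2 replicate 2 (0.058) and with DESeq2 (0.075).

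The receptor SMADs did not move as a group. SMAD5, of the BMP branch, had 107 and 107 CPM with siE1, 113 and 116 with siE2, and 113 and 122 for siE3, against 53.9 and 58.4 with siC, with log2 fold changes of 0.92 with siE1 (SE 0.0564), 1.03 with siE2 (SE 0.0563) and 1.06 with siE3 (SE 0.0563), edgeR adjusted p = 4.3e-09, 1.1e-09 and 1.7e-09. Every ESRRA siRNA library was at least 1.5 times both siC libraries. SMAD1, its close relative, had 14.4 and 12.9 CPM with siE1, 18.1 and 18.0 with siE2, and 19.3 and 19.0 for siE3, against 21.5 and 20.9 with siC, all 6 below siC, and was at -0.64 (SE 0.0880, edgeR adjusted p = 2.3e-05) with siE1, -0.23 (SE 0.0853, edgeR adjusted p = 0.029) with siE2 and -0.15 (SE 0.0850, edgeR adjusted p = 0.19) with siE3. The siE2 call was lost with each siC or siE2 library left out (adjusted p = 0.064 to 0.12), with library size only (0.073) and with DESeq2 (0.11). SMAD2, of the TGF-β and activin branch, had 79.2 and 79.9 CPM with siE1, 71.6 and 69.8 with siE2, and 80.5 and 86.1 for siE3, against 53.4 and 60.3 with siC, and its log2 fold changes were 0.48 with siE1 (SE 0.0628), 0.31 with siE2 (SE 0.0634) and 0.55 with siE3 (SE 0.0629), edgeR adjusted p = 1.3e-05, 5.9e-04 and 4.8e-06. SMAD3, which binds DNA directly in the same branch, had 181 and 174 CPM with siE1, 195 and 186 with siE2, and 162 and 171 for siE3, against 178 and 184 with siC. The groups lay close together, with log2 fold changes of -0.03, 0.07 and -0.12 and no call (edgeR adjusted p = 0.63, 0.22 and 0.055). With library size only, SMAD3 was called with siE2 (adjusted p = 0.036) and siE3 (0.037), and with siE3 also by DESeq2 size factors (0.049) and without siE3 replicate 2 (0.032). SMAD4, the partner of all receptor SMADs, fell with siE2 to 52.1 and 55.8 CPM, against 66.9 and 72.4 CPM with siC, -0.37 (SE 0.0620, edgeR adjusted p = 1.2e-04) on the log2 scale, and was at 0.02 with siE1 and -0.15 with siE3, neither called, although siE3 was without siC replicate 1 (adjusted p = 0.043).

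The inhibitory SMADs were low in reads and highest with siE2. SMAD7, which recruits ubiquitin ligases to TGFBR1, had 56 and 54 reads with siE1, 119 and 96 with siE2, and 52 and 64 for siE3, against 25 and 42 with siC. All 6 ESRRA siRNA libraries stood above siC, and the log2 fold changes were 0.63 with siE1 (SE 0.255), 1.65 with siE2 (SE 0.226) and 0.80 with siE3 (SE 0.252), edgeR adjusted p = 0.051, 1.7e-05 and 0.018. The siE3 call was lost without siC replicate 1 (0.52, adjusted p = 0.17), without siE3 replicate 2 (0.11) and with DESeq2 (0.052), while siE1 gained a call without siC replicate 2 (adjusted p = 0.022) or siE2 replicate 1 (0.048). The siE1 value also passed with library size only, with no filter or a stricter filter on low counts, and in a fit of siE1 and siC alone (edgeR adjusted p = 0.027 to 0.0496). SMAD6, which prefers the BMP branch, had 21 and 39 reads with siE1, 60 and 67 with siE2, and 20 and 27 for siE3, against 9 and 16 with siC, and 1 siC library lay below the level of the low-count filter. Its log2 fold changes were 1.17 with siE1 (SE 0.354), 2.30 with siE2 (SE 0.305) and 0.91 with siE3 (SE 0.372), edgeR adjusted p = 0.013, 1.2e-05 and 0.062. The siE1 call was lost without siC replicate 1 (adjusted p = 0.11) or siE1 replicate 2 (0.77, adjusted p = 0.19). The siE3 value passed with no filter on low counts (edgeR adjusted p = 0.043). Both differed between siE2 and siE3, by 0.85 (SE 0.204, edgeR adjusted p = 0.0029) for SMAD7 and 1.39 (SE 0.267, edgeR adjusted p = 5.2e-04) for SMAD6.

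Promoter letters of the members were read from RefSeq sequences on GRCh38.p14, from 250 bases before to 50 after each start, for 42 of the 45 members. The SMAD palindrome GTCTAGAC, searched on both strands, was found in 1 of them, that of SMAD6. Of all 27305 promoters searched 0.201% held it, and of those of 10378 genes tested 0.154%. It is shown because SMAD6 carried the largest log2 fold change of any member (siE2), with the palindrome in capitals, -12 to -5 from the start, at chr15:66702213-66702242 on the plus strand.
SMAD6: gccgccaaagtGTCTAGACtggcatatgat
The response element of ERR receptors, TNAAGGTCA, was found in 0 of the 42 member promoters. It was in 0.52% of the promoters of 10378 genes tested and in 0.963% of all promoters. The GC-rich SMAD element GGCGCC was in 35.7% of member promoters, against 31.4% of those of genes tested and 19% of all promoters. CAGACA was in 19.0% of member promoters, against 12% of those of genes tested and 16.8% of all promoters. The member promoters include those of INHBA and GREM1, which were not tested. GREM1 held both elements and INHBA held CAGACA. These are matches of letters within short windows.

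The intracellular regulators gave calls that changed with the siRNA. SMURF2, a ubiquitin ligase that targets receptors and SMADs, had 482 and 562 CPM with siE1, 342 and 393 with siE2, and 486 and 450.2 for siE3, against 368 and 327 with siC, higher with siE1 at 0.59 (SE 0.0767, edgeR adjusted p = 1.3e-05) and siE3 at 0.43 (SE 0.0768, edgeR adjusted p = 3.4e-04). SMURF1, its paralogue, was at -0.28 (SE 0.0788, edgeR adjusted p = 0.0066) with siE2, a call lost without siC replicate 2 (-0.17, adjusted p = 0.12) or siE2 replicate 2 (-0.18, adjusted p = 0.11). The SMAD corepressor SKIL (SnoN) was at 0.17, 0.51 and -0.17, with a call for siE2 (edgeR adjusted p = 1.1e-05). The siE1 call (edgeR adjusted p = 0.046) was lost when any 1 of the siC, siE1 or siE2 libraries was left out (adjusted p = 0.054 to 0.28), with no filter on low counts (0.073) and with DESeq2 (0.14), and the siE3 value passed without siE3 replicate 2 (0.046). The related corepressor SKI rose with siE1 (0.28, SE 0.0554, edgeR adjusted p = 6.0e-04) and with siE3 (0.19, SE 0.0558, edgeR adjusted p = 0.012), the second lost without siC replicate 2 (0.12, adjusted p = 0.18) or siE3 replicate 2 (0.068). TGIF1, a homeobox repressor of SMAD targets, had 46.3 and 37.7 CPM with siE1, 54.2 and 42.5 with siE2, and 27.3 and 34.5 for siE3, against 33.4 and 37.9 with siC and was called with siE2 (0.44, SE 0.124, edgeR adjusted p = 0.0068), not so without siC replicate 1 (adjusted p = 0.063) or siE2 replicate 1 (0.25, adjusted p = 0.14) or with DESeq2 (0.062). Its siE1 value (0.23) passed with no filter on low counts (edgeR adjusted p = 0.035), in a fit of siE1 and siC alone (0.046) and without siE1 replicate 2 (0.040).

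The 5 target genes among the members split by siRNA. ID1, an inhibitor of differentiation induced by BMP signalling, had 16.8 and 15.6 CPM with siE1, 22.9 and 23.2 with siE2, and 23.9 and 27.9 for siE3, against 13.8 and 15.9 with siC. The siE2 and siE3 libraries stood above siC and the siE1 libraries overlapped it, with log2 fold changes of 0.12 with siE1 (SE 0.103), 0.63 with siE2 (SE 0.0992) and 0.80 with siE3 (SE 0.0982), edgeR adjusted p = 0.35, 6.0e-05 and 9.4e-06. ID3, of the same family, had 6.14 and 6.29 CPM with siE1, 11 and 9.93 with siE2, and 9.19 and 11.2 for siE3, against 5.39 and 7.16 with siC, with log2 fold changes of -0.02 with siE1 (SE 0.157), 0.73 with siE2 (SE 0.147) and 0.70 with siE3 (SE 0.147), edgeR adjusted p = 0.94, 5.4e-04 and 0.0013. ID2 had 6 to 26 reads and was not called with any siRNA. TGFBI, a matrix protein named for its induction by TGF-β, had 242 and 247 CPM with siE1, 271 and 274 with siE2, and 171 and 168 for siE3, against 188 and 191 with siC. No groups overlapped, siE1 and siE2 being above siC and siE3 below, with log2 fold changes of 0.37 with siE1 (SE 0.0413), 0.52 with siE2 (SE 0.0413) and -0.16 with siE3 (SE 0.0419), edgeR adjusted p = 3.0e-06, 4.9e-08 and 0.0051. PMEPA1, a target that restrains SMAD signalling, had 45 and 64 reads with siE1, 88 and 112 with siE2, and 58 and 67 for siE3, against 56 and 51 with siC, and only siE2 was called, at 0.87 (SE 0.192, edgeR adjusted p = 0.0012).

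Between the ESRRA siRNAs the members were called at shares near those of all genes tested, apart from more calls higher with siE2 against siE1 and against siE3. For siE1 against siE2, 12 were called higher (28.5% of all genes tested) and 16 lower (28.6%). For siE1 against siE3 the counts were 11 higher (23.3%) and 11 lower (25.4%), and for siE2 against siE3 16 higher (23.4%) and 12 lower (25.0%). ESRRA itself was higher with siE1, at 0.37 (SE 0.108, edgeR adjusted p = 0.0092) against siE2 and 0.30 (SE 0.108, edgeR adjusted p = 0.031) against siE3, and was at -0.06 (SE 0.113, edgeR adjusted p = 0.67) for siE2 against siE3. Its siE1 against siE3 call was lost with DESeq2 (adjusted p = 0.067) and without any 1 of the siE1 or siE3 libraries (log2 values 0.28 to 0.32). The siE1 against siE2 call was lost without siE2 replicate 2 (0.23). The largest differences between siE2 and siE3 were TGFB2 at 2.50 (SE 0.0733, edgeR adjusted p = 4.9e-12), FST at 1.42, SMAD6 at 1.39, FSTL3 at 1.15 (SE 0.129, edgeR adjusted p = 3.1e-06) and BMP4 at 1.10 (SE 0.122, edgeR adjusted p = 2.8e-06). TGFBR1 and TGFBR2 went the other way, at -0.85 and -0.52 (SE 0.0387, edgeR adjusted p = 4.3e-08). For TGFBI the difference was 0.69 (SE 0.0415, edgeR adjusted p = 4.5e-09) for siE2 against siE3 and 0.53 (SE 0.0415, edgeR adjusted p = 7.3e-08) for siE1 against siE3. ACVR2B was lower with siE2 than with siE1, with siE1 against siE2 at 1.32 (SE 0.0914, edgeR adjusted p = 1.0e-08), and LTBP1 was higher with siE2 than with siE1, the difference of siE1 against siE2 being -1.15 (SE 0.109, edgeR adjusted p = 3.5e-07).

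**Figure D4:**
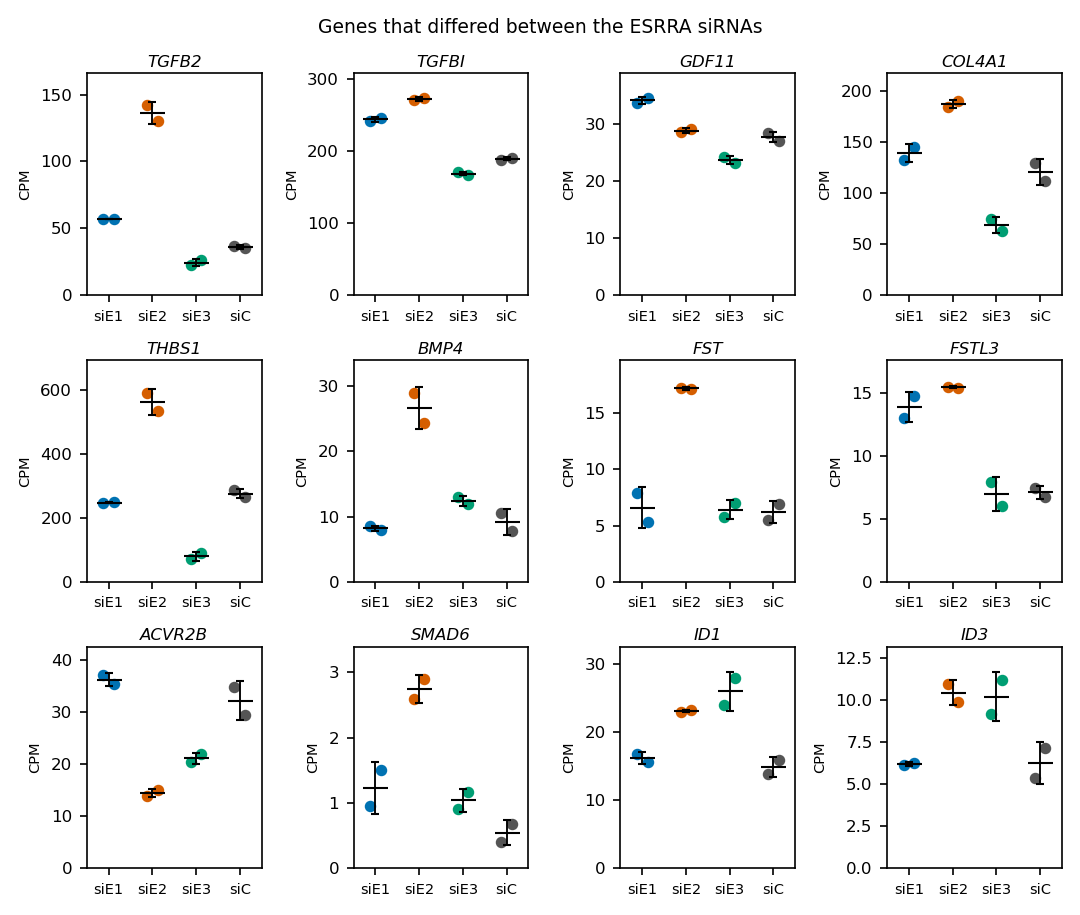
CPM in each library (points, y axes start at 0) with mean and SD (n = 2) for 12 genes that differed between the ESRRA siRNAs, by siRNA on the x axis. TGFB2, TGFBI, COL4A1 and THBS1 are highest with siE2 and lower with siE3 than with siC, as with TGFB2 at 142 and 131 CPM with siE2, 22.2 and 26.0 CPM with siE3 and 37.0 and 35.1 CPM with siC.

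A wider list of 112 further pathway genes, of which 80 were tested, held 37 genes higher (24.5% of all genes tested) and 17 lower (25.8%) with siE1. With siE2 there were 36 higher (27.9% of all genes) and 15 lower (28.5%), and with siE3 26 higher (21.3%) and 17 lower (20.8%). In the average 31 were higher (23.4%) and 16 lower (27.7%), with a median log2 fold change of 0.15. Of its 13 tested ligands, processing and latency genes 5 were higher and 1 lower in the average. ITGAV, an integrin subunit that takes part in releasing latent TGF-β, rose with every siRNA, by 1.00 with siE1 (SE 0.0507), 1.00 with siE2 (SE 0.0507) and 0.92 with siE3 (SE 0.0508) on the log2 scale. BMP1, a protease that cleaves LTBPs and the BMP antagonist chordin, was at 0.93, 0.94 and 0.15, the last not called, and the ligand BMP8B at 0.73, 0.77 and 0.59. THBS1, a matrix protein that can activate latent TGF-β, had 246 and 249 CPM with siE1, 591 and 532 with siE2, and 69.6 and 89.5 for siE3, against 285 and 266 with siC. It was higher with siE2 (1.03, SE 0.0779, edgeR adjusted p = 3.3e-08), lower with siE3 (-1.79, SE 0.0844, edgeR adjusted p = 5.8e-10) and not called with siE1 (-0.16). The siE1 value passed with no filter on low counts (edgeR adjusted p = 0.017), in a fit of siE1 and siC alone (0.012) and without either siE3 library. THBS1 was the 1 gene lower in the average (-0.31), a mean of siRNA values in opposite directions.

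Of 8 tested antagonists of the wider list 3 were higher and 2 lower in the average. The BMP-binding TWSG1 and NOG (noggin) rose with every siRNA, NOG at 0.83, 1.14 and 0.26 and TWSG1 at 0.51, 0.84 and 0.44. The siE3 call of NOG was lost without siC replicate 1 (adjusted p = 0.078) or siE3 replicate 2 (0.065). BMPER, which binds BMPs in the matrix, was called higher with siE1 (2.57, SE 0.210, edgeR adjusted p = 9.9e-08). It was at 0.51 with siE2, not called, and -0.27 with siE3. Without siC replicate 1 the siE2 value was 0.93. The call of BMPER in the average (0.94) came mainly through the siE1 value and was lost without siC replicate 2 (0.59). FSTL1, a secreted follistatin-like protein, fell with siE1 to 97.5 and 100.2 CPM, against 498 and 482 CPM with siC (-2.31, SE 0.0442, edgeR adjusted p = 3.3e-14), while siE2 was at -0.08, not called. With siE3 it was called higher (0.16), a call lost without siC replicate 2 (0.14). The lower call of FSTL1 in the average (-0.74) thus came through siE1. CRIM1, a transmembrane BMP binder, fell with each siRNA (-0.80, -0.71 and -0.28). Of 28 tested intracellular regulators 6 rose (23.4% of all genes tested did) and 11 fell (27.7%) in the average. USP15, a deubiquitinase acting on TGF-β receptors and SMADs, rose by 0.61 (SE 0.0460, edgeR adjusted p = 4.5e-08), with E2F5 at 0.63 and STUB1 at 0.30. TGFBRAP1, a receptor-associated chaperone of SMAD4, was at -0.50 (SE 0.0527, edgeR adjusted p = 1.6e-06), with E2F4 at -0.28 and RBL1 at -0.39.

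Of 27 tested genes in the wider list of targets, 17 were higher (24.5% of all genes tested) and 3 lower (25.8%) with siE1. The siE2 counts were 19 higher (27.9% of all genes) and 2 lower (28.5%), and the siE3 counts 11 higher (21.3%) and 7 lower (20.8%). Their median log2 fold change was 0.45, 0.64 and 0.32 with siE1, siE2 and siE3. SNAI2, a transcription factor of epithelial-mesenchymal transition, had 17.6 and 15.4 CPM with siE1, 47.1 and 46.0 with siE2, and 17.1 and 19.3 for siE3, against 8.63 and 11.4 with siC, with log2 fold changes of 0.71 with siE1 (SE 0.121), 2.21 with siE2 (SE 0.110) and 0.86 with siE3 (SE 0.121). TSC22D1 was at 0.47, 0.89 and 0.32, called each time, and the protease ADAM19 at 0.45, 1.03 and 0.16, the last not called. The siE3 value of ADAM19 passed with no filter on low counts (edgeR adjusted p = 0.030). It also passed without siC replicate 1 (0.25 on the log2 scale) or siE3 replicate 2 (0.23). CTGF, a matricellular target of TGF-β that YAP also drives, fell with every siRNA, at -0.70 with siE1 (SE 0.0471), -0.40 with siE2 (SE 0.0469) and -0.98 with siE3 (SE 0.0475). ZEB1, another transition factor, was at -0.12 (SE 0.0440, edgeR adjusted p = 0.033) in the average, a call lost without siC replicate 1 (-0.07), siE1 replicate 1 (-0.10) or siE2 replicate 1 (-0.10). It was also lost with library size only (edgeR adjusted p = 0.074), the stricter filter (0.053), the replicate block (0.053) and DESeq2 (adjusted p = 0.062).

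Further targets were named after their values were seen. COL4A1, a basement membrane collagen chain, was higher with siE2 (0.64, SE 0.0747, edgeR adjusted p = 3.3e-06) and lower with siE3 (-0.81, SE 0.0791, edgeR adjusted p = 9.6e-07). Its siE1 call (0.21) was lost without siC replicate 2 (0.10, adjusted p = 0.35) or siE1 replicate 2 (0.14, adjusted p = 0.24). IL11, a cytokine known as a TGF-β target in bone metastasis of this line, had 62.7 and 50.3 CPM with siE1, 21.1 and 21.3 with siE2, and 29.8 and 35.1 for siE3, against 13.0 and 18.3 with siC and was highest with siE1, at 1.84 (SE 0.132, edgeR adjusted p = 2.4e-08), and 1.05 (SE 0.138, edgeR adjusted p = 2.1e-05) with siE3. Its siE2 call (0.43) was lost without siC replicate 1 (0.21, adjusted p = 0.24), without either siE2 library (adjusted p = 0.057 and 0.064) and with DESeq2 (0.088).

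**Figure D5:**
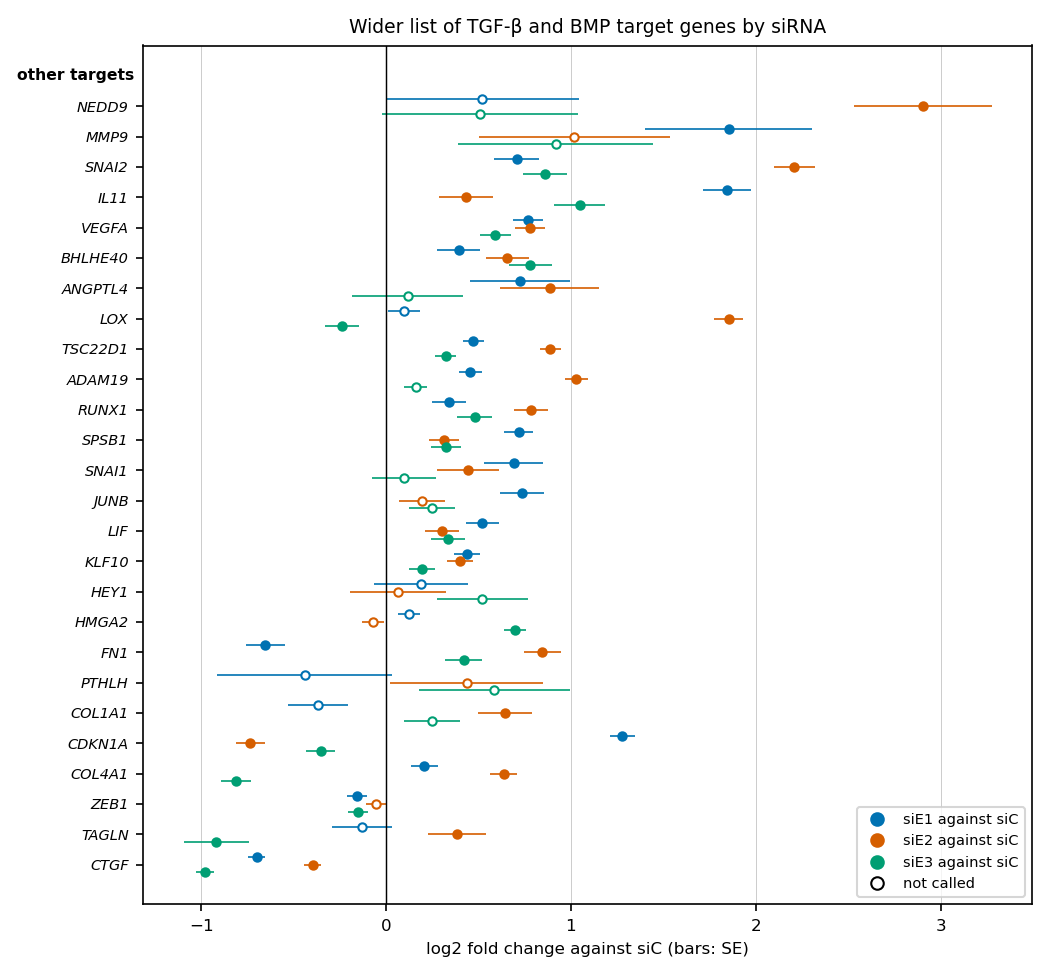
Log2 fold change against siC (x axis, bars are SE) of 26 of the 27 tested genes in the wider list of TGF-β and BMP targets, sorted by their average, with siE1 in blue, siE2 in orange and siE3 in green, and filled points for calls (edgeR adjusted p below 0.05). SNAI2, VEGFA and IL11 are to the right of 0 with all 3 siRNAs, CTGF is to the left, and COL4A1 has siE2 and siE3 on opposite sides.

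The words TACATTT and ACATTTA had been found, in earlier work on these fold changes, to be frequent in 3′ UTRs of genes raised by all the siRNAs, so their presence in members is a description and not a test. In GENCODE v29 principal transcripts, 21 of 42 tested members (50%) held either word in the 3′ UTR, against 31.6% of 12259 genes tested. This share and those that follow were not adjusted for the length of the 3′ UTRs. Of members called higher in the average 12 of 27 held one, of those called lower 5 of 6, and of those not called 4 of 9. Of the 11 members called higher with each of the siRNAs 6 held one (54.5%). The median log2 fold change of the average was 0.17 over the 21 members with a word and 0.37 over the 21 without. Sites are shown for TGFBR1, which was higher with every siRNA, and for ACVR2B, which was not, with the words in capitals and 10 bases on each side.
TGFBR1 3′ UTR bases 1116 to 1143: agacatgaatTACATTTAaaattagaat
TGFBR1 3′ UTR bases 3873 to 3900: gagaccaaggTACATTTAcctcattgtg
TGFBR1 3′ UTR bases 4321 to 4347: gcaaataaatTACATTTttcccaagtg
ACVR2B 3′ UTR bases 5281 to 5307: accaagttttTACATTTtcatgatggt
ACVR2B 3′ UTR bases 5669 to 5695: ttgcaaagttTACATTTttgagctcac
SMAD2 held 17 sites in a 3′ UTR of 32870 bases and SMAD5 held 5 in 5254 bases, while TGFB1, TGFBR2, SMAD7 and LTBP3 held none. Whether these words take part in any of the changes was not tested.

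In the authors' deposited table of fold changes and adjusted p-values, 17 members were higher and 1 lower with siE1 at an adjusted p below 0.05, where 15.2% of the 17211 genes with an adjusted p in it were higher and 15.5% lower. For siE2 the authors' deposited table had 23 members higher (17.0% of its genes) and 3 lower (19.2%), and for siE3 16 higher (11.4%) and 2 lower (10.8%). All of these were also called here with the same sign, and 5 (siE1), 6 (siE2) and 6 (siE3) members called here did not pass in that table.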

How the data were processed

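RNA was sequenced from MDA-MB231 cells in 8 libraries, 2 per siRNA, grouped by their labels. Reads were processed with TopHat 1.3.3, HTSeq and DESeq on hg19, per the submitters' processing notes, with annotation, strand and filters not given in the sources used here. The deposited table holds raw counts per gene symbol and, per the file headers, the authors' fold changes (ratios of each ESRRA siRNA over siC) and the authors' adjusted p-values.

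From the counts, edgeR 4.0.16 (R 4.3.3) fitted 1 quasi-likelihood model to all 8 libraries with TMM scaling after filterByExpr (about 0.441 CPM), and p-values were adjusted by Benjamini-Hochberg over 13395 genes. A call is an adjusted p below 0.05, named "adjusted p" also where an alternative gave it. Log2 fold changes have the siRNA named first on top. CPM are counts per 1e6 of the scaled library size. Alternatives were other scalings, filters, DESeq2 1.42.0, limma-voom (limma 3.58.1), a replicate block, the compared groups alone and each library left out. The procedure was tested on simulated data.

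Members and gene lists were chosen with earlier results of these data known. Library values were given for members called alike or oppositely by the siRNAs and for changes of at least 1 on the log2 scale. The main genes of each branch also had them. From the wider list, per role, up to 3 genes each way with the smallest p in the average were named by log2 fold change. Library values, for some or all groups, were added for THBS1, FSTL1, SNAI2 and IL11. Lengths and 3′ UTRs came from GENCODE v29 (GRCh38), by symbol, and not from the authors' build. Of the genes in the lists, 2 are counted but not reported here by themselves.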

Additional observations from a re-analysis of the deposited data

Results flagged for a closer look

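Between the ESRRA siRNAs, 3 members were called in opposite directions against siC, and the direct difference between those siRNAs also passed the test. TGFB2 differed by 1.23 (log2, SE 0.0763, edgeR adjusted p = 5.7e-09) for siE1 against siE3 and by 2.50 (SE 0.0733, adjusted p = 4.9e-12) for siE2 against siE3. TGFBI differed by 0.53 (SE 0.0415, edgeR adjusted p = 7.3e-08) for siE1 against siE3 and by 0.69 (SE 0.0415, adjusted p = 4.5e-09) for siE2 against siE3. GDF11 differed by 0.53 (SE 0.0696, edgeR adjusted p = 1.8e-05) for siE1 against siE3. Opposite calls were made for 10.7% of all genes tested. No group had the 4 libraries needed to look for single outlying ones.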

How the results depend on the processing

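No member changed direction as a call under any alternative run. Of 190 member calls over the 7 comparisons, 141 held under every alternative listed for the members. The count lower with siE1 (2) was 4 with no filter on low counts, and 1 to 3 with 1 library left out (1 without siC replicate 2 or siE1 replicate 2). The counts higher ranged over 17 to 21 (siE1), 24 to 26 (siE2), 17 to 20 (siE3) and 22 to 27 (average) with 1 library left out. Alternatives for the wider list were added after its values were seen: its targets lower in the average (2) were 1 with library size only, the stricter filter, DESeq2 or the replicate block, and 1 to 3 with 1 library left out. The replicate numbers as given did not pair the libraries across all groups. Correlations of replicate deviations were 0.25 for siE1 with siE2, 0.13 for siE3 with siC, and -0.29 to -0.21 for the other pairs. With the replicate block the members higher were 19 (siE1), 26 (siE2), 21 (siE3) and 27 (average), and those lower 2, 6, 4 and 6. With the block the siE1 calls of ENG (edgeR adjusted p = 0.061) and SKIL (0.070) were lost and SMAD6 was called with siE3 (0.048). With the numbers of siE3 and siC crossed, a pairing added after seeing the data, members lower were 4 with siE1 and 9 with siE3. For the average, a fit of only the groups compared was not run, since it needs all groups. The cause of these moves was not tested. With few reads, as for SMAD6, SMAD7, INHBB, BMPR1B and ID2, only large changes were detectable at this depth.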
